A study of Homo sapiens with 8 samples.

Results

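The genes described are the ID inhibitors and the E proteins, 7 genes in all: ID1, ID2, ID3 and ID4, and TCF3, TCF4 and TCF12. They were chosen by name, as the members of 2 families whose proteins bind each other, and all 7 were among the 10710 genes tested and the 18143 gene labels that could be given values. RNA-seq was performed on Raji, a Burkitt lymphoma cell line sensitive to the CD20 antibody rituximab, and on Raji-4RH, its rituximab-resistant derivative. Each line received chidamide, an inhibitor of histone deacetylases (HDACs), at 3 μM, or the solvent DMSO, for 24 h, and was then collected by flow sorting. Each of the 4 groups had 2 replicate libraries, 8 in all, from cells at a low passage number. The study sought genes that chidamide regulates in rituximab-resistant lymphoma cells, with the parental line beside them. Raji-4RH is 1 derived line, so rituximab resistance and any other difference that arose while it was derived cannot be told apart. The labels do not say whether replicates were separate cultures, so the p-values below measure the spread between these libraries, which may be technical.

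E proteins are transcription factors with a basic helix-loop-helix (bHLH) domain that bind DNA as dimers at a short sequence called the E box. ID proteins share the helix-loop-helix part but lack the basic region that touches DNA, so that a dimer of an ID and an E protein cannot bind. In B cells, TCF3 (also called E2A) and its relatives drive the genes of B cell identity and of the germinal center. ID3 and TCF3 are well known in Burkitt lymphoma, where mutations of either gene are recurrent.

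Values are FPKM, the reads of a gene scaled to its length and to the library's total, so levels can be compared between genes. Each library held from 13991697 to 21193441 reads, the fewest in Raji-4RH chidamide replicate 1. The summed level of 10 B cell markers was between 1683 and 1742 FPKM in Raji DMSO and between 2348 and 2368 in Raji chidamide. In Raji-4RH the sum was between 1362 and 1428 FPKM with DMSO and between 1540 and 1659 with chidamide. With DMSO, 8 of the 10 were called lower in Raji-4RH than in Raji and 1 higher. Under chidamide 9 were called lower and 0 higher. Over all genes tested, 32.4% were called lower and 41.2% higher with DMSO, and 35.0% and 44.3% under chidamide. MS4A1 was at 56.25 FPKM in Raji DMSO and 12.68 in Raji-4RH DMSO. With chidamide in Raji-4RH, 6 of the 10 B cell markers were called higher and 3 lower, the transcription factor PAX5 among the latter (log2 fold change -0.61). Of all genes tested, 43.3% were called higher and 31.6% lower in that comparison. Of 10 T and NK cell markers, 8 stayed under 1 FPKM in every library. Among these, CD3D was at 0 in all DMSO libraries and averaged 0.259 FPKM in Raji chidamide and 0.503 in Raji-4RH chidamide. CD3E went from 0.0618 to 0.484 FPKM in Raji and from 0.724 to 3.52 FPKM in Raji-4RH with chidamide. NKG7 went from 1.47 to 3.17 and from 1.78 to 5.33 FPKM, and both genes were called in each line. The myeloid marker sum was between 1.219 and 1.31 FPKM in the 4 DMSO libraries and between 10.9 and 12.1 FPKM in the 4 chidamide libraries, with 5 of 9 markers under 1 FPKM in every library and ELANE and MPO at or near 0. On that list CSF1R went from 0.0682 to 4.85 FPKM in Raji and from 0.108 to 3.01 FPKM in Raji-4RH, ITGAM from 0.0620 to 3.77 and from 0.0929 to 2.40 FPKM, and LYZ from 0.142 to 4.10 FPKM in Raji-4RH, all called. The T and NK marker sum was between 1.42 and 3.33 FPKM with DMSO and between 3.52 and 10.7 FPKM with chidamide, and the sum of stromal and epithelial markers (8 of 9 under 1 FPKM in every library) was between 0.224 and 0.896 FPKM and between 1.48 and 2.77 FPKM. Their part in the results was not tested. Fewer cells of a type and less RNA per cell cannot be told apart in such bulk libraries.

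In the deposited table, gene labels and values do not share a row throughout, and in the later part of the table a gene's values lie 1 or more rows below its label. For ID1, ID2, ID3 and TCF3, label and values share a row. The values of TCF12 were taken from 1 row below its label, those of ID4 from 5 rows below and those of TCF4 from 12 rows below. These distances were inferred and not marked in the table, so the values of TCF12, ID4 and TCF4 depend on them. So do those of the markers PAX5, MS4A1, CD3D, CD3E, CSF1R, ITGAM and ELANE named above. The row used for ID4 held 6668 reads over the 8 libraries, while the rows directly above and below it held 0 reads and go to the olfactory receptor genes OR8U1 and OR4X2. The row used for TCF4 held 17709 reads, against 1 and 91 reads in the rows around it. For TCF12 the neighbouring rows held 9556 and 4840 reads against 9650, so the level alone does not set its row apart. Read from the rows as deposited, several directions of these 3 genes turned, and these are given beside each gene.

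Differences were tested with limma on log2(FPKM + 1) over all 8 libraries, and a gene was called at a Benjamini-Hochberg adjusted p under 0.05. The log2 fold changes below are on this scale, which understates the change of genes with low values. An exact permutation test of 2 against 2 libraries cannot go below p = 0.333 and was not used.

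ID1 and ID4 were near silent in Raji and abundant in Raji-4RH. ID1 (ENSG00000125968, GRCh38 chromosome 20, 31605283 to 31606515, plus strand) encodes an inhibitor known as a target of BMP signaling. It stood at 0.862 and 0.725 FPKM in Raji DMSO, from 21 and 18 reads, and at 0.354 and 0.662 FPKM in Raji chidamide, from 9 and 17 reads. In Raji-4RH it stood at 94.3 and 98.3 FPKM with DMSO and at 185.9 and 233.5 FPKM with chidamide. Every Raji-4RH library thus lay far above every Raji library, and the chidamide libraries of Raji-4RH lay above its DMSO libraries. By reads per library total, ID1 was 122-fold higher in Raji-4RH than in Raji with DMSO (95% interval 88.8 to 171, exact binomial, counting error only). Under chidamide the ratio was 418 (285 to 641). The fitted log2 difference between the lines was 5.76 ± 0.12 (SE, adjusted p = 3.77e-09) with DMSO and 7.12 ± 0.12 (adjusted p = 1.12e-09) with chidamide, which ranked 6 and 2 among all 10710 genes by size.

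ID1 rose with chidamide in Raji-4RH, by a log2 fold change of 1.10 ± 0.12 (SE, n = 2 against 2, adjusted p = 5.26e-05). In Raji the log2 fold change was -0.26 ± 0.12 with an adjusted p of 0.104, from 26 reads in chidamide and 39 in DMSO. This Raji value passed the threshold in 5 of 19 alternative settings, all with the same sign, among them the fit without Raji chidamide replicate 2 (-0.40, adjusted p = 0.0392) and those without either chidamide library of Raji-4RH (adjusted p = 0.0392 and 0.0394). Without Raji chidamide replicate 1 it was -0.11 (adjusted p = 0.537). The difference between the drug effects of the lines was 1.36 ± 0.17 (adjusted p = 0.000416), higher in Raji-4RH, and missed the threshold with limma voom on recovered reads (1.80, adjusted p = 0.0526).

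ID4 (ENSG00000172201, chromosome 6, 19837386 to 19840684, plus strand), the inhibitor best known from the nervous system and as a gene silenced by methylation in blood cancers, had the sharpest contrast. In Raji DMSO it had 0 and 2 reads, and in Raji chidamide 5 and 4 reads, at most 0.104 FPKM. The count of 0 allows up to 0.0648 FPKM, at 3 reads. Raji-4RH held 29.1 and 31.5 FPKM with DMSO, from 1279 and 1564 reads, and 43.2 and 55.5 FPKM with chidamide. No Raji library came near any Raji-4RH library. The reads gave a ratio between the lines of 1419 with DMSO (393 to 11730, 2843 reads against 2) and 542 with chidamide (285 to 1186, 3814 reads against 9). These intervals overlap, and both rest on a handful of reads in Raji. The fitted log2 difference was 4.94 ± 0.11 with DMSO (adjusted p = 3.89e-09) and 5.52 ± 0.11 with chidamide (adjusted p = 1.76e-09), with ranks of 20 and 12 by size. With the inferred row kept, other settings gave 4.69 to 10.3 for the first of these, and read from the row of its label the differences were -2.06 and -1.40.

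With chidamide, ID4 rose in Raji-4RH by 0.68 ± 0.11 on the log2 scale (adjusted p = 0.000443). In Raji the log2 fold change was 0.098 ± 0.11 (95% interval -0.15 to 0.34, adjusted p = 0.461), at a depth of 5 reads or fewer per library. It passed the threshold in 3 of 18 alternatives, with 0.69 at a pseudocount of 0.1 (adjusted p = 0.0111). The difference between the drug effects was 0.58 ± 0.15 (adjusted p = 0.0134). That difference was 0.0032 at a pseudocount of 0.1 (adjusted p = 0.993) and -1.39 with limma voom on reads (adjusted p = 0.451), and it missed the threshold without Raji DMSO replicate 2 (adjusted p = 0.0502) and without Raji-4RH DMSO replicate 1 (adjusted p = 0.0538). Its direction is therefore not settled by these libraries.

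The sequences just upstream of ID1 and ID4 are shown because these 2 genes separated the lines most. They are the bases before each RefSeq start on GRCh38.p14, plus strand, at chr20:31605039-31605282 for ID1, where 244 of 250 bases are printed so as to stop at the first exon of GENCODE v29, and at chr6:19837120-19837369 for ID4. Capitals mark the E box, CANNTG, the motif that E proteins bind.
ID1 upstream: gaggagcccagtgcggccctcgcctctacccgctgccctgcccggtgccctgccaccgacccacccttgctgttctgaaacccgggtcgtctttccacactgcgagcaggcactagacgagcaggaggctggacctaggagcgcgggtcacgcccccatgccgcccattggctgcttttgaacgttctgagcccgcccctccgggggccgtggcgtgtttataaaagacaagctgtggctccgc
ID4 upstream: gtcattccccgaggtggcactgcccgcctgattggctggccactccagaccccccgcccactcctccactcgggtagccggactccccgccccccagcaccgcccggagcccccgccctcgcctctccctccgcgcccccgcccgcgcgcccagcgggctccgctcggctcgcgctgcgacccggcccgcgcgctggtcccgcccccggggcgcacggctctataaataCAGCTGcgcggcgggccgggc
The ID1 sequence holds no E box and that of ID4 holds 1, close to its end, while 61.8% of 35116 promoter windows of the same length hold at least 1. The GC box GGGCGG, read on both strands, occurred 2 times in the 250 bases of ID1 and 6 times in those of ID4, and 42.6% of all windows held at least 1. The windows of ID2 and ID3 held 1 and 0 E boxes, and those of TCF3, TCF4 and TCF12 held 0, 1 and 1. The dinucleotide CG was counted 19 times for ID1, 29 for ID2, 24 for ID3, 34 for ID4, 36 for TCF3, 2 for TCF4 and 12 for TCF12, against a median of 11 over all windows. Only 1 RefSeq start was used per gene. The windows of ID2, ID3 and TCF4 lie within the bounds of these genes in GENCODE v29. That of TCF4 (chr18:55635958-55636207) also lies within the processed pseudogene RPL21P126, so its counts do not describe other starts of TCF4. These matches describe the letters of the reference, not binding or methylation in these cells.

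**Figure D1:**
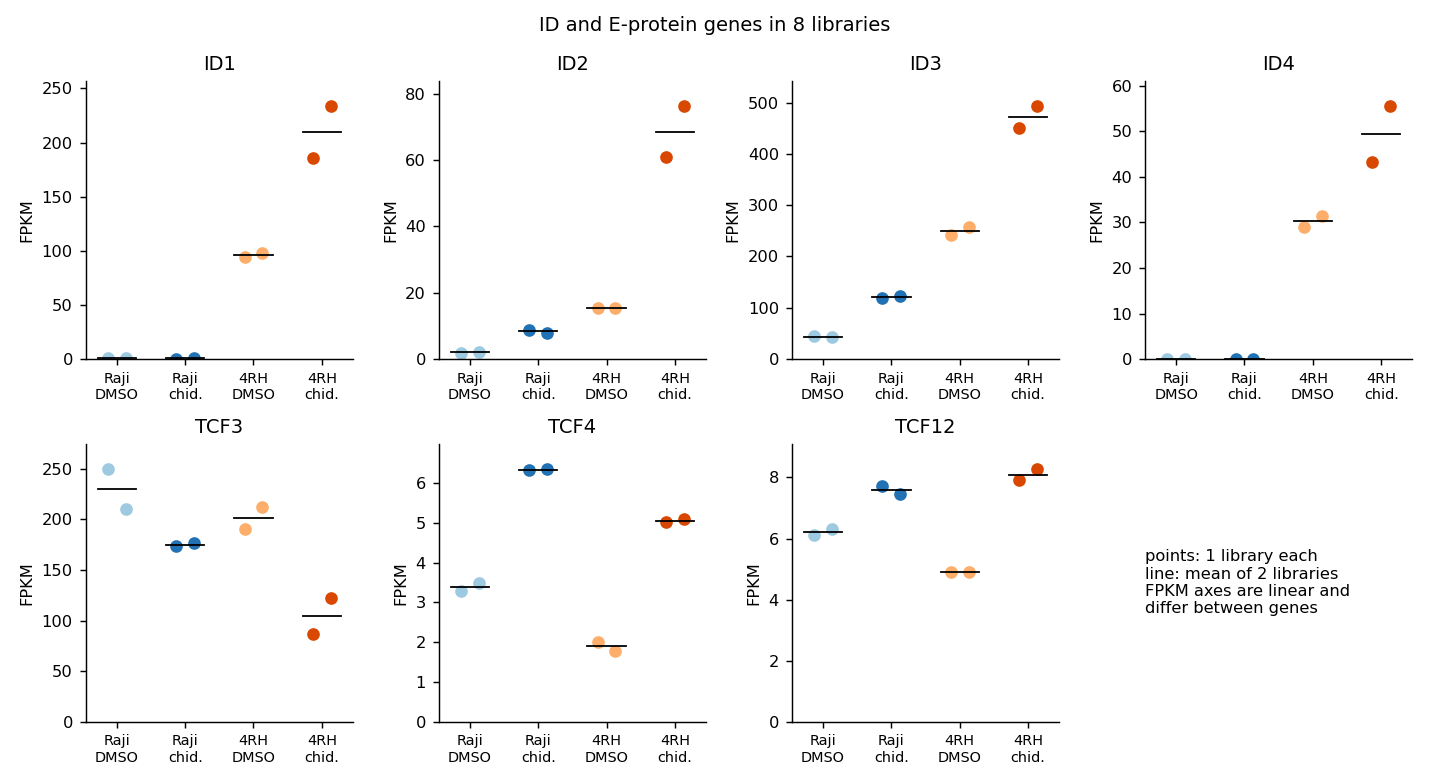
Level of each gene in FPKM (linear axis from 0, own scale per gene) in the 8 libraries, by line and treatment, with 1 point per library and a line at the mean of 2 libraries. ID1 and ID4 lie at the bottom in Raji (at most 0.862 and 0.104 FPKM) and well above it in Raji-4RH, while TCF3 is lowest in Raji-4RH with chidamide (86.5 and 122 FPKM).

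ID2 and ID3 were present in both lines and rose with chidamide in both. ID2 (ENSG00000115738, chromosome 2, 8678845 to 8684453, plus strand) encodes the inhibitor best known for its role in innate lymphocytes. It was at 1.77 and 2.25 FPKM in Raji DMSO and at 8.78 and 7.84 FPKM in Raji chidamide. In Raji-4RH it was at 15.4 and 15.3 FPKM with DMSO and at 61.0 and 76.3 FPKM with chidamide. The 4 groups did not overlap, and even the treated Raji libraries lay below the untreated Raji-4RH libraries. On the log2(FPKM + 1) scale ID2 had the largest drug effect of the 7 genes in each line, a log2 fold change of 1.63 ± 0.11 in Raji (adjusted p = 8.8e-06) and of 2.08 ± 0.11 in Raji-4RH (adjusted p = 8.19e-07). With limma voom on reads the value in Raji was 2.05 for ID2 and 2.09 for ID4 (adjusted p = 0.217), the latter from 5 reads or fewer per library. The difference between the drug effects of the lines on ID2 was 0.45 ± 0.16 with an adjusted p of 0.0466. It lost the call in 9 of 18 alternatives, at adjusted p-values up to 0.748 with limma voom on reads. The 6 libraries whose removal ended it were Raji DMSO replicate 2, both Raji chidamide replicates, both Raji-4RH DMSO replicates and Raji-4RH chidamide replicate 2, with values from 0.29 to 0.53. Between the lines ID2 was higher in Raji-4RH by 2.44 ± 0.11 with DMSO (adjusted p = 2.72e-07) and by 2.90 ± 0.11 with chidamide (adjusted p = 8.23e-08).

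ID3 (ENSG00000117318, chromosome 1, 23557918 to 23559794, minus strand) was the most abundant inhibitor in every library. It was at 44.9 and 42.7 FPKM in Raji DMSO and at 118.9 and 123.0 FPKM in Raji chidamide. In Raji-4RH it was at 241.6 and 256.9 FPKM with DMSO and at 449.9 and 492.8 FPKM with chidamide. As for ID2, the 4 groups were separate and came in the same order. ID3 rose by 1.45 ± 0.07 in Raji (adjusted p = 8.64e-07) and by 0.92 ± 0.07 in Raji-4RH (adjusted p = 3.55e-06). It was the only 1 of the 7 genes with a larger rise in Raji by test, the difference being -0.53 ± 0.09 (adjusted p = 0.00199), and this call held in all 18 alternatives. Its level was higher in Raji-4RH by 2.48 ± 0.07 with DMSO (adjusted p = 1.06e-08) and by 1.95 ± 0.07 with chidamide (adjusted p = 3.24e-08).

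Among the E proteins, TCF3 had by far the highest FPKM and fell with chidamide in Raji-4RH. TCF4 and TCF12, at low FPKM, rose in both lines. TCF3 (ENSG00000071564, chromosome 19, 1609290 to 1652605, minus strand) encodes E12 and E47. It was at 249.9 and 210.3 FPKM in Raji DMSO and at 173.7 and 176.4 FPKM in Raji chidamide. In Raji-4RH it was at 190.9 and 212.6 FPKM with DMSO and at 86.5 and 122.2 FPKM with chidamide. The DMSO libraries of the lines overlapped, and both treated Raji-4RH libraries lay below all others. TCF3 fell by 0.96 on the log2 scale in Raji-4RH (SE 0.15, adjusted p = 0.000421). In Raji the log2 fold change was -0.39 ± 0.15 (95% interval -0.73 to -0.043) with an adjusted p of 0.0528, just above the threshold. It was called in 8 of 19 alternatives, always with the same sign, at adjusted p-values from 0.00309 to 0.278 over all of them. The fits without Raji-4RH chidamide replicate 1 or replicate 2 gave adjusted p-values of 0.00312 and 0.00309 for the Raji effect.

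The difference between the drug effects on TCF3 was -0.58 ± 0.21 (adjusted p = 0.0527). Leaving out 1 library gave -0.82 to -0.33, with -0.82 (adjusted p = 0.00106) without Raji-4RH chidamide replicate 2 and -0.33 (adjusted p = 0.0603) without Raji-4RH chidamide replicate 1. Between the lines, TCF3 differed by -0.19 ± 0.15 with DMSO (95% interval -0.53 to 0.16, adjusted p = 0.289), which does not show equal levels, and leaving out 1 library gave -0.31 (without Raji DMSO replicate 2) to -0.062 (without Raji DMSO replicate 1), with -0.11 without Raji-4RH DMSO replicate 1. Under chidamide it was lower in Raji-4RH, with a log2 difference of -0.76 ± 0.15 (adjusted p = 0.00152).

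TCF4 (ENSG00000196628, chromosome 18, 55222331 to 55664787, minus strand), also named E2-2 and the E protein of plasmacytoid dendritic cells, was at 3.28 and 3.48 FPKM in Raji DMSO and at 6.31 and 6.35 FPKM in Raji chidamide. In Raji-4RH it was at 2.01 and 1.78 FPKM with DMSO and at 5.01 and 5.09 FPKM with chidamide. Replicates lay close together and no pair of groups overlapped. Its joined exons span 27828 bases, so these low FPKM values still rest on 1047 to 3680 reads per library. TCF4 rose by 0.74 ± 0.06 in Raji (adjusted p = 2.16e-05) and by 1.07 ± 0.06 in Raji-4RH (adjusted p = 1.08e-06). The larger effect in Raji-4RH (0.32 ± 0.09, adjusted p = 0.0158) missed the threshold with quantile normalization (adjusted p = 0.0543) and without any 1 of Raji DMSO replicate 2, Raji chidamide replicate 1, Raji chidamide replicate 2 or Raji-4RH DMSO replicate 2 (adjusted p from 0.0518 to 0.0607). TCF4 was lower in Raji-4RH, with log2 differences of -0.60 ± 0.06 with DMSO (adjusted p = 3.37e-05) and -0.28 ± 0.06 with chidamide (adjusted p = 0.00299). Read from the row of its label, the drug effect in Raji-4RH was -0.34, the difference between the effects -0.93 and the line difference with DMSO 0.58.

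TCF12 (ENSG00000140262, chromosome 15, 56918623 to 57299281, plus strand), also named HEB and known from T cell development, was at 6.11 and 6.33 FPKM in Raji DMSO and at 7.71 and 7.46 FPKM in Raji chidamide. In Raji-4RH it was at 4.91 and 4.92 FPKM with DMSO and at 7.91 and 8.28 FPKM with chidamide. The untreated groups were the lowest and the treated groups lay close together. TCF12 rose by 0.25 ± 0.05 in Raji (adjusted p = 0.00414) and by 0.62 ± 0.05 in Raji-4RH (adjusted p = 1.18e-05), and the effect was larger in Raji-4RH by 0.37 ± 0.08 (adjusted p = 0.0047). It was lower in Raji-4RH with DMSO (-0.29 ± 0.05, adjusted p = 0.00133), while under chidamide the difference was 0.083 ± 0.05 (95% interval -0.042 to 0.21, adjusted p = 0.189). Read from the row of its label, the rise in Raji-4RH was 0.11 (adjusted p = 0.182), the difference between the effects -0.30, and the line differences 0.046 and -0.25.

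**Figure D2:**
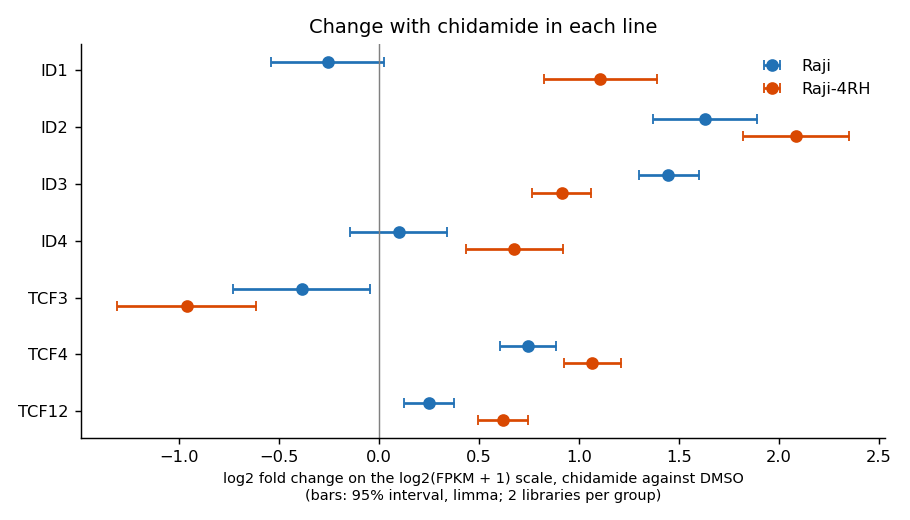
Fitted log2 fold change of chidamide against DMSO for the 7 genes (horizontal axis, log2(FPKM + 1) scale) in Raji and Raji-4RH, with 95% intervals from limma and 2 libraries per group. ID2 has the largest value in each line on this scale (1.63 and 2.08), ID3 is the gene with the larger rise in Raji (1.45 against 0.92), and TCF3 lies below 0 in both lines (-0.39, not called, and -0.96).

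Every effect above shares libraries with others, since each treated group was set against the same DMSO group in 2 comparisons. With chidamide, 7 of 7 genes were called in Raji-4RH, 6 higher and 1 lower, where 74.9% of all genes tested were called, 43.3% higher and 31.6% lower. In Raji, 4 of 7 were called, all 4 higher, where 60.0% of all genes were called, 31.5% higher and 28.5% lower. The drug effects differed between the lines for 6 of 7 genes, 5 higher and 1 lower in Raji-4RH, against 48.8% of all genes, 27.2% higher and 21.7% lower. Between the lines with DMSO, 6 of 7 were called, 4 higher and 2 lower in Raji-4RH, against 73.6% of all genes, 41.2% higher and 32.4% lower. Under chidamide 6 of 7 were called, again 4 higher and 2 lower, against 79.3% of all genes, 44.3% higher and 35.0% lower. Most genes were thus called in most comparisons, and the share of called members by itself says little. Over all genes, the median log2 fold change was 0.09 with chidamide in Raji-4RH, 0.017 in Raji and 0.063 between the lines with DMSO. Under quantile normalization the first of these became -0.022, a shift of over 0.1, and the split of calls in Raji-4RH went from 57.9% higher to 47.8% higher. The members' calls in Raji-4RH kept their count of 7 and their directions there.

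The 4 inhibitors together took up more of the RNA in Raji-4RH than in Raji, and more with chidamide than without. Their summed level was 46.6 ± 1.25 FPKM in Raji DMSO (SD, n = 2), 129.9 ± 2.45 in Raji chidamide, 391.2 ± 15.3 in untreated and 799.0 ± 83.4 in treated Raji-4RH. The 3 E proteins summed to 239.7 ± 27.7 FPKM in Raji DMSO, 188.9 ± 1.78 in Raji chidamide, 208.5 ± 15.2 in untreated and 117.5 ± 25.6 in treated Raji-4RH. The ratio of the ID sum to the E-protein sum was 0.183 and 0.208 in Raji DMSO, 0.683 and 0.692 in Raji chidamide, 1.92 and 1.83 in untreated Raji-4RH, and 7.44 and 6.33 in treated Raji-4RH. Inhibitor transcripts were therefore fewer than E-protein transcripts, per length, in all 4 Raji libraries and more numerous in all 4 Raji-4RH libraries. This is a description of transcripts, without a test, and says nothing of protein. The sums and their ratio also depend on the joined exon lengths, which are longer for the E-protein genes.

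**Figure D3:**
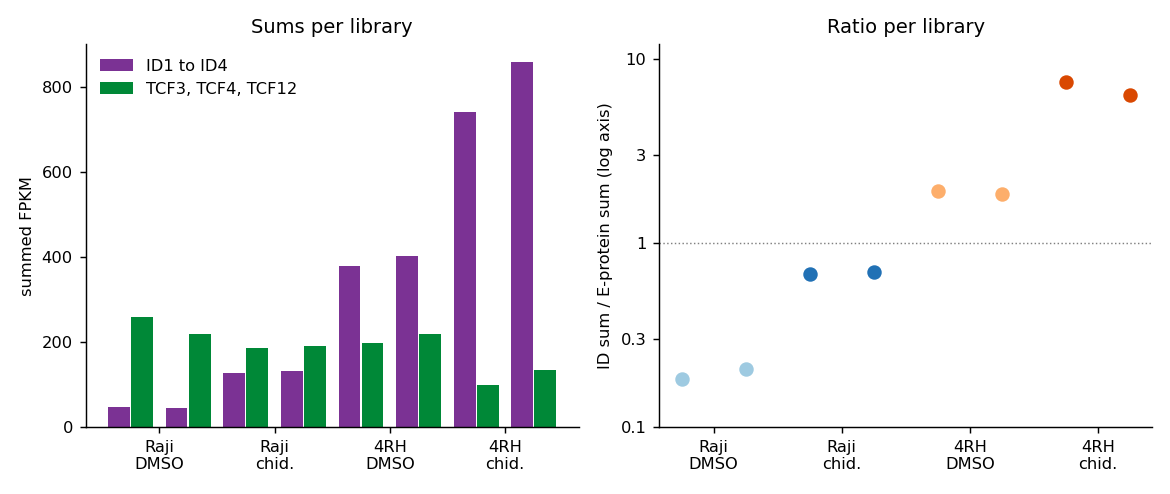
Left, summed FPKM of ID1 to ID4 and of TCF3, TCF4 and TCF12 in each of the 8 libraries (bars from 0). Right, their ratio per library on a log axis, with a dotted line at 1: the 4 Raji libraries lie between 0.183 and 0.692 and the 4 Raji-4RH libraries between 1.83 and 7.44.

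The make-up of these sums differed as well. ID3 made up between 92.8% and 94.5% of the ID sum in the Raji libraries and between 57.4% and 63.9% in the Raji-4RH libraries, where ID1 was second. TCF3 made up between 87.0% and 97.0% of the E-protein sum, with the lowest shares in Raji-4RH chidamide. In Raji DMSO the order of levels was TCF3, ID3, TCF12, TCF4, ID2, ID1 and ID4. In Raji chidamide ID2 moved above TCF12 and TCF4, and the rest of the order was the same. In Raji-4RH DMSO it was ID3, TCF3, ID1, ID4, ID2, TCF12 and TCF4. In Raji-4RH chidamide it was ID3, ID1, TCF3, ID2, ID4, TCF12 and TCF4, so that 2 inhibitors stood above the most abundant E protein. In each group no neighbours in the order overlapped between their 2 libraries. The orders are by FPKM and depend on the joined exon lengths, above all for TCF4.

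For each gene, the genes whose log2(FPKM + 1) followed it most closely over the 8 libraries were looked up among about 6613 tested genes that averaged 5 FPKM or more. With 4 groups in 8 libraries, high correlations are common, and they are given as a description. Only 4331 of the 10710 genes tested have label and values in the same row. Genes named in this paragraph may therefore also rest on inferred rows. ID1 was closest to ZNF516 (Pearson r = 0.999), EPB41L2 and FBXO44. ID4 was closest to SERINC2 and ZNF516 (both r = 1.00 after rounding) and ZCCHC14, so ZNF516 was found with both of the inhibitors that were near silent in Raji. ID2 was closest to C6orf89 (r = 0.999), NCOA3 and NDFIP2, and ID3 to HLA-DQB1 (r = 0.996), AMZ2 and ITPR1. TCF3 was closest to MED25 (r = 0.998), CAPN15 and SRRT, TCF4 to MEF2A (r = 0.998), NOTCH2 and FAM50A, and TCF12 to PLEKHB1 (r = 0.997), ATP2B4 and INCA1.

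The BMP and TGF-beta pathway, whose receptors and SMAD proteins are known to switch on ID genes, was looked at next. Among the list genes named from here on, SMAD1, SMAD3, TGFBR2, SKIL, HEY1, HES6, HES7, LMO2, LMO4, SSBP3, SOCS1, SKP2 and USP1 also rest on inferred rows. Of 31 genes on the list 30 had values and 24 were tested. In Raji-4RH, 19 of the 24 rose with chidamide, 1 fell and 4 were not called. Of all genes tested, 43.3% were called higher there and 31.6% lower. The list's median log2 fold change was 0.39 against 0.09 for all genes. In Raji, 6 rose, 2 fell and 16 were not called, where 31.5% of all genes were called higher and 28.5% lower. The list's median in Raji was 0.0063 against 0.017. SMAD7, an inhibitory SMAD, rose in both lines, by 1.33 ± 0.13 in Raji-4RH (1.30 to 4.81 FPKM, adjusted p = 2.03e-05) and by 1.25 ± 0.13 in Raji (0.974 to 3.65 FPKM, adjusted p = 6.74e-05). In Raji-4RH the next largest effects, after that on SMAD7, were on ACVR1, a type I receptor for BMPs and activins (1.33 to 4.41 FPKM, adjusted p = 3.08e-06), and on SKIL, a repressor of SMADs (1.19 ± 0.08, 8.52 to 20.7 FPKM, adjusted p = 1.87e-06). In Raji the largest were on SMAD3 (1.40 ± 0.09, 7.16 to 20.5 FPKM, adjusted p = 7.46e-06) and TGFBR2 (1.37 ± 0.06, 2.66 to 8.49 FPKM, adjusted p = 6.55e-07), a SMAD and a receptor of the TGF-beta branch, ahead of SMAD7.

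Between the lines with DMSO, 16 of the 24 pathway genes were higher in Raji-4RH, 3 were lower and 5 were not called. Over all genes tested, 41.2% were called higher and 32.4% lower in this comparison. The list's median was 0.53 against 0.063 for all genes. Several parts of the BMP branch were, like ID1 and ID4, near 0 in Raji, while others were not. The following were picked after their values were seen, and their bearing on the ID genes was not tested. SMAD9, a receptor-activated SMAD of the BMP branch, was at 0.303 ± 0.12 FPKM in Raji DMSO and at 7.33 ± 0.045 in Raji-4RH DMSO (SD, n = 2, log2 difference 2.68, adjusted p = 1.5e-08). SMAD1, of the same branch, was at 0.211 ± 0.015 and 2.36 ± 0.13 FPKM (1.47, adjusted p = 3.1e-07). ACVR1 was at 0.0189 and 1.33 FPKM, and ACVR2A, a type II receptor, at 0.0184 and 1.26 FPKM. SMAD5 and BMPR1A, of the same branch, were expressed in both lines. SMAD5 was at 7.54 FPKM in Raji DMSO and 11.4 in Raji-4RH DMSO (log2 difference 0.54), and BMPR1A at 2.17 and 4.86 FPKM (0.88). The ligand gene BMP7 went the other way, with 34.7 ± 4.2 FPKM in Raji and 14.9 ± 0.71 in Raji-4RH. With chidamide BMP7 fell in Raji to 21.8 FPKM (-0.64, adjusted p = 0.00070) and rose in Raji-4RH to 25.5 FPKM (0.74, adjusted p = 0.00018), and these effects differed (1.38, adjusted p = 0.00014).

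**Figure D4:**
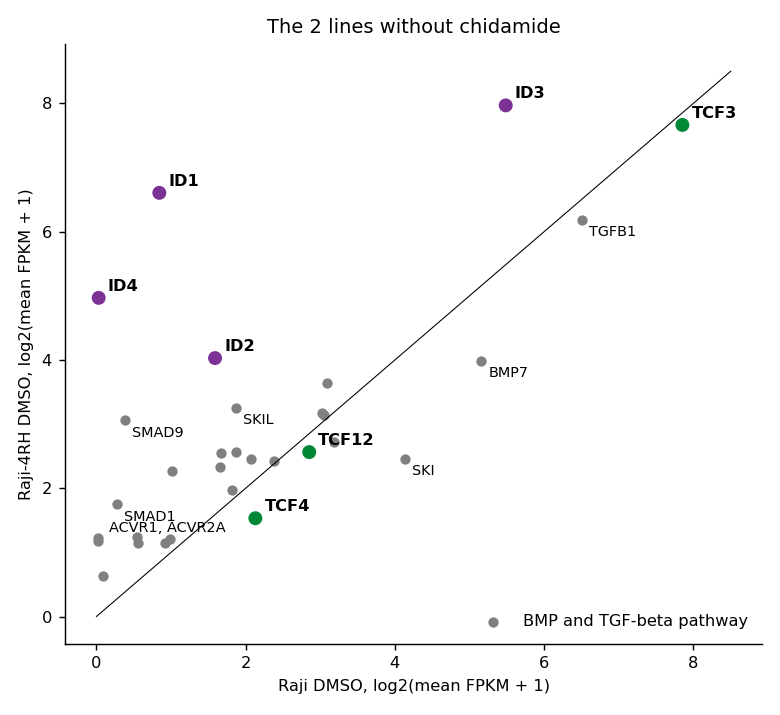
Mean level in Raji-4RH DMSO against Raji DMSO, both as log2(mean FPKM + 1), for the 7 genes and 24 genes of the BMP and TGF-beta pathway, with a line of equal level. The 4 inhibitors lie above the line, TCF3, TCF4 and TCF12 lie near or below it, and SMAD9, SMAD1, ACVR1 and ACVR2A share the left edge with ID1 and ID4. The pathway genes BMP4, ACVR2B and BAMBI also lie left of ID1.

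Other helix-loop-helix repressors are the HES and HEY factors of the Notch pathway and their relatives, of which 6 on a list of 11 were tested. With chidamide, 5 rose and 1 was not called in Raji-4RH (median 1.08), where 43.3% of all genes were called higher, and 4 rose and 2 were not called in Raji (median 0.28), where 31.5% were. HEY1 rose in both lines, from 3.96 ± 0.34 to 12.04 ± 0.82 FPKM in Raji-4RH (1.39 ± 0.07, adjusted p = 5.54e-07) and from 2.86 ± 0.073 to 10.1 ± 0.21 FPKM in Raji (1.52 ± 0.07, adjusted p = 1.01e-06). HES7 rose from 0.811 to 10.97 FPKM in Raji-4RH (2.74 ± 0.19, adjusted p = 2.97e-06) and from 5.51 to 9.53 FPKM in Raji (0.71 ± 0.19, adjusted p = 0.0112). HES6 rose in Raji from 4.87 to 6.09 FPKM (0.27, adjusted p = 0.0495). HES1 was at 6.14 ± 0.31 FPKM in Raji DMSO and at 0.0473 ± 0.030 in Raji-4RH DMSO, so this repressor, unlike the ID genes, was lower in Raji-4RH (-2.77, adjusted p = 7.4e-09). HES7 was lower there too with DMSO (-1.86, adjusted p = 3.12e-05), while 3 of the 6 were higher and 1 was not called. Over all genes tested, 41.2% were called higher and 32.4% lower in this comparison. With chidamide HES1 rose in Raji-4RH to 0.340 FPKM (0.36, adjusted p = 0.00137).

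The tissue-specific bHLH factors that pair with E proteins were nearly absent. Of 18 on the list 16 had values, 13 of them under 1 FPKM in every library. Only 2 were tested, of which 1 fell and 1 was not called in each line. Over all genes, 31.6% were called lower in Raji-4RH and 28.5% in Raji. LYL1, a partner known from blood stem cells and T cell leukemia, fell from 12.5 ± 0.44 to 5.05 ± 0.98 FPKM in Raji-4RH (-1.17 ± 0.11, adjusted p = 1.66e-05) and from 12.2 ± 1.2 to 7.80 ± 0.13 FPKM in Raji (-0.58 ± 0.11, adjusted p = 0.00179).

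The cofactors of E proteins, which bring in acetyltransferases, corepressors or LMO and LDB1 complexes, moved both ways. Of 12 tested on a list of 13, 5 rose and 3 fell in Raji-4RH (median 0.14), and 4 rose and 4 fell in Raji (median -0.073). Over all genes, 43.3% were called higher and 31.6% lower in Raji-4RH, and 31.5% and 28.5% in Raji. KAT2A, an acetyltransferase, fell in both lines, from 47.0 to 28.4 FPKM in Raji-4RH (-0.71 ± 0.07, adjusted p = 2.49e-05) and from 42.4 to 26.5 FPKM in Raji (-0.66 ± 0.07, adjusted p = 8.6e-05). LMO4 rose in Raji-4RH from 3.08 to 10.2 FPKM (1.45, adjusted p = 4.16e-07), as did SSBP3, from 11.2 to 19.3 FPKM (0.74, adjusted p = 1.94e-05). In Raji, LMO2 rose from 3.39 to 11.3 FPKM (1.48, adjusted p = 8.2e-07) and the corepressor RUNX1T1 fell from 2.80 to 1.39 FPKM (-0.67, adjusted p = 5.05e-05). LMO2, a bridge between bHLH dimers and GATA factors, fell in Raji-4RH from 33.8 to 26.0 FPKM (-0.37 ± 0.07, adjusted p = 0.00101), and its drug effects differed between the lines (-1.85 ± 0.09, adjusted p = 6.31e-06).

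Genes known as targets of E proteins in B cells showed no single direction. The list was not divided by whether E proteins raise or lower a gene. Of 17 tested on a list of 22, 10 rose and 6 fell in Raji-4RH (median 0.30 against 0.09 for all genes). There 43.3% of all genes were called higher and 31.6% lower. In Raji, 5 rose and 7 fell (median -0.034 against 0.017), where 31.5% of all genes were called higher and 28.5% lower. VPREB3 rose in Raji-4RH from 16.2 to 42.0 FPKM (1.33, adjusted p = 7.99e-07), and the adaptor BLNK fell from 11.6 to 4.08 FPKM (-1.31, adjusted p = 3.1e-07). In Raji, PTPN6, a phosphatase that restrains B cell receptor signaling, rose from 10.2 to 43.5 FPKM (1.99, adjusted p = 2.48e-06), and SOCS1 rose from 11.3 to 33.5 FPKM (1.49, adjusted p = 9.72e-05). CD79A, the signaling chain of the B cell receptor, fell in Raji from 556.1 to 289.9 FPKM (-0.94, adjusted p = 2.17e-05). VPREB3 went the other way in Raji, from 42.3 to 28.4 FPKM (-0.56, adjusted p = 0.00023), and the drug effects differed (1.89, adjusted p = 8.9e-06).

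Among 9 genes for the turnover of ID and E proteins, all tested, 2 rose and 5 fell in Raji-4RH (median -0.17). In Raji, 1 rose and 5 fell (median -0.18). Over all genes, 43.3% were called higher and 31.6% lower in Raji-4RH, and 31.5% and 28.5% in Raji. SKP2, an F-box protein, fell from 20.9 to 6.26 FPKM in Raji-4RH (-1.59 ± 0.06, adjusted p = 1.89e-07) and from 16.5 to 8.18 FPKM in Raji (-0.93 ± 0.06, adjusted p = 8.2e-06). USP1, a deubiquitinase known to stabilize ID proteins, fell from 48.1 to 17.6 FPKM in Raji-4RH (-1.40 ± 0.05, adjusted p = 1.56e-07) and from 36.0 to 21.7 FPKM in Raji (-0.70 ± 0.05, adjusted p = 1.55e-05). CDC27, a subunit of the anaphase-promoting complex, fell in both lines by a smaller amount (-0.39 and -0.36, adjusted p = 0.000393 and 0.00111). The transcript of this ID stabilizer thus fell in both lines where ID2 and ID3 transcripts rose.

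**Figure D5:**
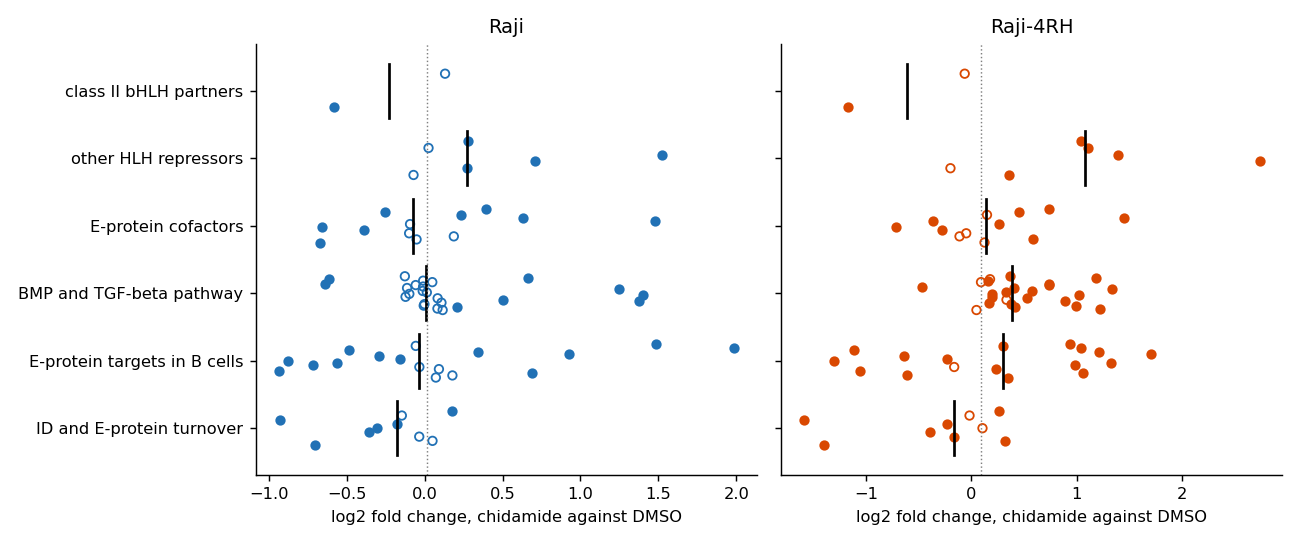
Log2 fold change of chidamide against DMSO for each tested gene of 6 lists (rows), in Raji (left) and Raji-4RH (right), with filled points for called genes, open points for the others, a black bar at the list's median and a dotted line at the median of all genes. In the BMP and TGF-beta row, 19 of 24 points are called and higher in Raji-4RH and 6 of 24 in Raji. Over all genes tested these shares are 43.3% and 31.5%.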

How the data were processed

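RNA-seq was performed on 8 libraries, 2 for each of 4 groups, placed by the labels. The authors deposited 1 table of FPKM values with gene lengths. The submitters' processing notes name HISAT2 2.0.5, SAMtools 1.7, HTSeq 0.9.1 and DESeq2 1.22.2 with GRCh38, while the annotation and the use of strand are not given in the sources used here. Reads of antisense genes that overlap ID2, ID4 and TCF4 therefore cannot be told apart from theirs. FPKM times length and library total gave whole reads (within 0.02) for 100.0% of non-zero values, and the last 662 of 63967 rows repeat the first 662. Values were placed under 18143 labels by fixed row shifts in 12 segments, with FPKM rescaled to the label's length, which covers 90.8% to 93.2% of the reads. In 12 of 12 segments the shift used was, of 0 to 20, the one at which protein-coding labels correlated best with level. Olfactory and taste receptor, keratin-associated protein and defensin genes were counted as not coding in this check. Its correlations were 0.131 to 0.47 over the segments, and 0.133 in the segment of TCF12. A further label named ID3, at row 62372, lies outside the segments and was not used here.

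The 10710 genes that reached 1 FPKM in 2 or more libraries were fitted in 1 model over 4 group means with limma 3.58.1 (lmFit, eBayes with trend, R 4.3.3) on log2(FPKM + 1), and p-values were adjusted over all of them by Benjamini-Hochberg. The script was tested on simulated data. Named genes are all members, per list and line the 3 called genes with the largest change, an average of 1 FPKM or more and groups that do not overlap, and per member the 3 genes with the highest Pearson correlation; others are said to be picked afterwards or compared across lines. A gene that this rule names is not reported here. Members and lists were chosen with earlier results of these data known. Alternatives were other scaling, pseudocount, filters, variance model, samples in the fit, a replicate block, voom on reads, row placement and leaving out each library. Promoter sequences are from RefSeq (GRCh38.p14), with all 7 members matched, and gene coordinates from GENCODE v29.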

Additional observations from a re-analysis of the deposited data

Results flagged for a closer look

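The drug effect differed between the lines by limma's test of the difference for 6 of the 7 genes, at an adjusted p under 0.05. The value is the log2 fold change in Raji-4RH minus that in Raji. It was 1.36 for ID1, whose log2 fold change was 1.10 in Raji-4RH and -0.26 (not called) in Raji. It was 0.45 for ID2, 0.58 for ID4, 0.32 for TCF4 and 0.37 for TCF12. It was -0.53 for ID3, the gene with the larger rise in Raji. Across all genes tested, 48.8% had such a difference. The call was lost with the direction kept in 9 of 18 alternatives for ID2 and 5 of 17 for TCF4. The same held in 3 of 17 for ID4 and 1 of 18 for ID1. For ID4 the value was 0.0032 at a pseudocount of 0.1. With limma voom it was -1.39, turned in direction and not called either (adjusted p = 0.451), so its direction is not settled.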

How the results depend on the processing

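Of 643 values of single genes under alternative settings, 593 kept their direction and side of the threshold, 19 lost the call, 22 gained it and 9 turned direction. Of the 9, 8 came from rows as deposited: for ID4 -2.06 between the lines with DMSO and -1.40 with chidamide, for TCF4 -0.34 with chidamide in Raji-4RH, -0.93 for the difference of effects and 0.58 between the lines with DMSO, and for TCF12 -0.30 for the difference of effects and 0.046 and -0.25 between the lines. The other was ID4 with limma voom, a difference of effects of -1.39. With only the genes whose label and values share a row, 4 members were in the fit, 4 were called in Raji-4RH and 3 between the lines with DMSO, since 3 members were left out. Leaving out 1 library gave 3 to 6 called differences of effects, with 3 without Raji DMSO replicate 2. Replicate numbers are shared between groups, but deviations of same-numbered libraries correlated at -0.091 in Raji and 0.166 in Raji-4RH, so the numbers were not read as pairs; with a replicate block 7 members were called in Raji-4RH, 5 in Raji, 7 for the difference, and 7 and 6 between the lines. The block gave TCF3 the call in Raji (-0.39, adjusted p = 0.00953), for the difference (-0.58, adjusted p = 0.0105) and between the lines with DMSO (-0.40, adjusted p = 0.0171), and changed no other call of a member. For ID1 and ID4, Raji libraries held 21 reads or fewer, which limits any change within Raji.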
